A study of Mus musculus with 14 samples.

Results

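Mal, Mal2, Mall and Pllp encode small proteolipids that span the membrane several times and share the MARVEL domain. These 4 genes are described here out of 37680 genes in the deposited table of read counts from mouse colon epithelium. Mal was chosen by its fall in the Smad4 KO libraries, and the other 3 were added as its nearest relatives by family, so the Smad4 KO against WT values of Mal are given as a description with no test. All 4 were among the 15127 genes that had at least 10 counts in at least 3 libraries, and Mal passed that filter on its WT libraries and on its KO libraries alike, since its lowest count in any library was 30.

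Bulk poly(A) RNA was sequenced from epithelium released from the colon with EDTA, in 14 libraries from 4 groups of mice. WT mice on water gave 4 libraries, Smad4 KO mice on water gave 4, WT mice given 2.5% dextran sulfate sodium (DSS) for 3 days gave 3, and Smad4 KO mice given the same DSS gave 3. DSS in the drinking water injures the colon epithelium and brings on colitis. In the KO mice both floxed Smad4 alleles were deleted by a tamoxifen-inducible Cre recombinase under the Villin promoter, which is active in intestinal epithelial cells and not in the underlying stroma. Mice were adult, matched for age and sex, on a background enriched for C57/BL6. The study's drawing of its regimen gives tamoxifen to the Smad4 KO mice only, so in these groups the deletion and the tamoxifen cannot be told apart. The labels do not say that replicates were separate mice, and p-values measure the spread between these libraries, which may be technical.

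MAL is a raft proteolipid of the apical membrane. It was first found in T cells and myelin, and in polarized epithelial cells it works in the raft-based route that carries newly made proteins from the Golgi to the apical surface. MAL2 works in transcytosis, the indirect route in which apical proteins go first to the basolateral side. MALL, also called BENE, sits in the same kind of raft and binds caveolin, and plasmolipin, the product of Pllp, is a proteolipid of myelin and of kidney and gut epithelium. Smad4 is the shared partner of the receptor-regulated Smads in TGF-β and BMP signalling.

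In mm9 coordinates, Mal lies at chr2:127458962-127482431 and Mall at chr2:127530122-127555668, both on the minus strand and 47.7 kb apart. The 3 annotated genes between them drew at most 2 reads each over all 14 libraries. Mal2 lies at chr15:54402921-54434401 on the plus strand, and Pllp at chr8:97198795-97220142 on the minus strand. No annotated gene overlaps any of the 4. Their coding sequences were 462 bases for Mal, 528 for Mal2, 465 for Mall and 549 for Pllp, and any pair of them was 49.2% to 53.9% identical over a global alignment. The longest exact run shared by the transcripts of any pair was 14 bases, far shorter than a read, so reads of one gene could not be counted for another on sequence alone.

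The bases just before the start of Mal are shown because Mal is the member that was lower in Smad4 KO, and Smad4 is a factor that binds DNA at the letters CAGAC. Of the 4 genes, 3 were matched in the RefSeq promoter table (GRCm38.p6, a later build than that of the counts): Mal, Mall and Pllp. The window of 250 bases that ends just before the start of Mal, chr2:127656696-127656945 on the minus strand, reads 5′ to 3′ as below, with CAGAC or its complement GTCTG in capitals.
Mal: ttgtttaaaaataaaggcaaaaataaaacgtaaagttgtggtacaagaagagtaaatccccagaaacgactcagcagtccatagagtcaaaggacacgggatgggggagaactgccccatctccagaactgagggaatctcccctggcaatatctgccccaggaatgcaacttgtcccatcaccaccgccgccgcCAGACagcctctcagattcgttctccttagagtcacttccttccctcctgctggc
The letters CAGAC occurred 1 time in this window, with the first base at -55 from the start. The same window held them 1 time for Pllp and 2 times for Mall, read on both strands, and 42.2% of all 32851 windows of this length held at least 1. The palindrome GTCTAGAC and the letters GGCGCC, both searched for as further Smad motifs that do not overlap CAGAC, occurred in none of the 3 windows, against 0.167% and 9.59% of all windows. A match is only a match of letters. The 3 genes share it whether or not they differed between WT and KO, and so do a large share of all genes.

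The targeted gene was checked first. Smad4 stood at 118 to 159 CPM (a gene's count scaled to a library of 1000000 counts, with edgeR's TMM factors) in the 4 WT water libraries and at 170 to 182 in the 3 WT DSS libraries. It stood at 40.4 to 43.9 CPM in the 3 KO DSS libraries and at 35.0 to 46.7 CPM in 3 of the KO water libraries. The library labelled KO water replicate 1 had 158 CPM, within the WT water range, and so goes against its label by this measure. The main KO water results are therefore given with and without that library. Totals ran from 12882827 to 26087231 counts per library, and mitochondrially encoded genes took 4.05% to 32.8% of them. The share was above 20% in WT water replicates 3 and 4 and KO water replicate 4. The epithelial identity of the samples was clear, with 9 epithelial marker genes summing to 12231 to 19274 CPM.

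Mal was far lower in the KO libraries than in the WT libraries. The WT water libraries had 49.9, 17.4, 25.8 and 30.6 CPM. The KO water libraries had 7.43 (the library labelled KO water replicate 1), 2.92, 5.18 and 2.14 CPM. Every KO water library lay below every WT water library, and the one with Smad4 at the WT level was the highest of the 4. After DSS, the WT libraries had 34.6, 16.5 and 21.9 CPM. The KO DSS libraries had 2.35, 1.48 and 1.62 CPM. The WT and KO ranges did not overlap in either treatment, which the choice of Mal for its fall makes no result. Of all tested genes, 10.4% had groups that did not overlap on water (14.9% without KO water replicate 1), and 21.7% did after DSS.

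The size of the fall can be described from the edgeR quasi-likelihood model over all 14 libraries. Mal was lower in KO than in WT by a log2 fold change of -2.80 (SE 0.39) on water, or 6.94-fold, and by -3.74 (SE 0.48) after DSS, or 13.4-fold. Without KO water replicate 1, the log2 fold change on water was -3.17. Within libraries that share the letters at the start of their names, whose meaning the labels do not give, the order was the same. Mal was chosen for its fall in these same libraries, so this order and the values below are a description and no result. Among the Z libraries, WT water replicate 3 had 25.8 CPM, and KO water replicates 1 and 2 had 7.43 and 2.92 CPM. In the MP pair, WT had 30.6 and KO had 2.14 CPM. Using only the 5 DSS libraries whose names start with D, and the D libraries of WT water in the same fit, the log2 fold change after DSS was -3.82. The lowest Mal count, 30 in KO DSS replicate 2, carries an exact Poisson 95% interval of 20.2 to 42.8 counts, which covers counting error only.

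Mal varied widely among WT libraries too. WT water had a mean of 30.9 ± 13.8 CPM (SD, n = 4) and WT DSS had 24.4 ± 9.30 CPM (SD, n = 3), so the highest WT library had 3.02 times the lowest. KO water had 4.42 ± 2.39 CPM (SD, n = 4), or 3.41 ± 1.58 (SD, n = 3) without replicate 1, and KO DSS had 1.82 ± 0.469 CPM (SD, n = 3). For DSS against water, Mal had a log2 fold change of -0.35 in WT and -1.29 in KO, or -0.92 in KO without KO water replicate 1. These contrasts use the same libraries that chose Mal and are given without a test. The WT DSS range lay inside the WT water range but for its lowest library, and KO DSS replicate 1 lay above KO water replicate 4, so the KO groups overlapped as well. All KO DSS libraries have names that start with D, and no KO water library does. Within KO, a change with DSS thus cannot be told apart from a difference between these sets of libraries. This holds for every gene and bears on the difference of the DSS responses too.

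**Figure D1:**
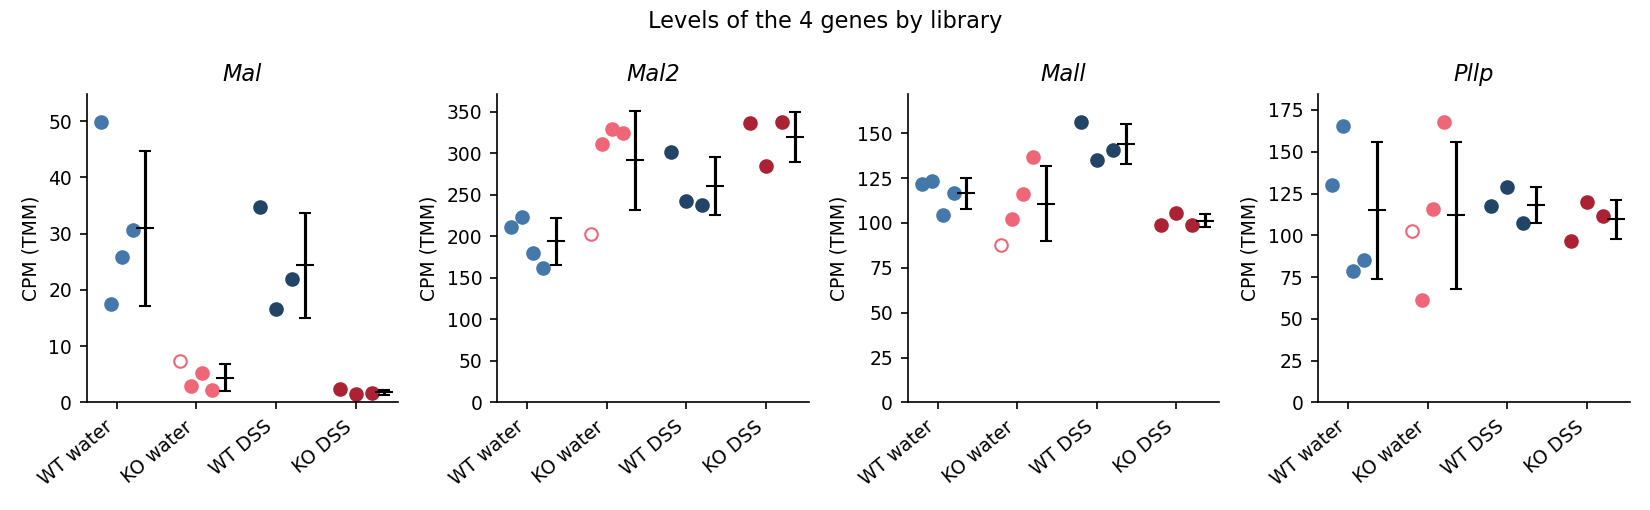
CPM (TMM scaled, linear axis from 0) of Mal, Mal2, Mall and Pllp in each of the 14 libraries, by group; points are libraries, the open circle is the library labelled KO water replicate 1, and bars give mean ± SD. Mal sits at 16.5 to 49.9 in WT and 1.48 to 7.43 in KO, while the other 3 genes stay between 61.5 and 338 in every library.

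Mal2, the member of the transcytotic route, moved the other way on water. It stood at 211, 224, 180 and 162 CPM in WT water and at 202, 311, 329 and 324 CPM in KO water. KO water replicate 1 lay inside the WT range, and the other 3 KO libraries lay above it. Mal2 passed the test on water, with a log2 fold change of 0.59 (SE 0.16, 95% interval 0.24 to 0.94), a 1.5-fold rise at an adjusted p of 0.042 (edgeR quasi-likelihood test, Benjamini-Hochberg over all tested genes). It was the only one of the 3 genes that the choice did not rest on to pass there, on a background of 8.44% of genes called in either direction and 4.83% called higher in KO. Without KO water replicate 1 the log2 fold change was 0.73 with an adjusted p of 0.016 (edgeR), and 7.66% of genes were called. The call was fragile. With only the 8 water libraries in the fit, which called 0.00686% of genes, the adjusted p of Mal2 was 0.16 (edgeR) for the same fold change. Leaving out 1 library at a time gave adjusted p-values from 0.016 to 0.13 (edgeR), short of the threshold of 0.05 in 11 of 14 cases. These were the fits without WT water replicates 1, 3 or 4, without KO water replicates 2 or 3, and without any 1 of the 6 DSS libraries, which take no part in the comparison but share in the estimate of spread.

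After DSS, Mal2 had 301, 242 and 238 CPM in WT and 336, 285 and 338 CPM in KO. KO replicate 2 lay below WT replicate 1, and the log2 fold change of 0.30 (95% interval -0.11 to 0.70) did not pass the test, with an adjusted p of 1.00 (edgeR). In this comparison 0.0132% of genes were called, and none of Mal2, Mall and Pllp was among them. In WT, all 3 DSS libraries had more Mal2 than all 4 water libraries, with a log2 fold change of 0.42 (95% interval 0.05 to 0.80) and an adjusted p of 0.19 (edgeR). In KO the change with DSS was 0.13 (95% interval -0.24 to 0.51, adjusted p 0.89 by edgeR), and -0.01 without KO water replicate 1. The lowest Mal2 levels were thus those of WT mice on water and of KO water replicate 1.

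Mall, the neighbour of Mal on chromosome 2, did not fall with it on water. WT water libraries had 121, 124, 104 and 117 CPM and KO water libraries had 87.6, 102, 116 and 137 CPM. The groups overlapped throughout. The log2 fold change was -0.07 (95% interval -0.35 to 0.20, adjusted p 0.74 by edgeR), and 0.02 without KO water replicate 1, which had the lowest value of all 14 libraries. An interval of this width leaves out any fall in Mall near the size seen for Mal.

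After DSS the Mall groups came apart. WT DSS libraries had 156, 135 and 141 CPM, and KO DSS libraries had 99.0, 105 and 99.1 CPM. All 3 KO values lay below all 3 WT values, as for 21.7% of genes in either direction. The log2 fold change was -0.51 (SE 0.15, 95% interval -0.83 to -0.19), and it did not pass in the model of all libraries, with an adjusted p of 0.62 (edgeR). It passed with only the 6 DSS libraries in the fit, with an adjusted p of 0.044 (edgeR), where 0.801% of genes were called. DESeq2 gave an adjusted p of 0.27. Part of this gap lay in the WT libraries, which all had more Mall after DSS than on water, with a log2 fold change of 0.31 (95% interval 0.01 to 0.60, adjusted p 0.23 by edgeR). In KO the change with DSS was -0.13 (95% interval -0.43 to 0.17, adjusted p 0.85 by edgeR), and -0.23 without KO water replicate 1. The difference of the DSS responses was -0.44 for Mall (95% interval -0.86 to -0.01) and did not pass, with an adjusted p of 0.64 (edgeR). It was -0.53 without KO water replicate 1, with an adjusted p of 0.57 (edgeR).

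Pllp did not pass the test in any comparison. WT water libraries had 130, 166, 78.5 and 85.5 CPM, and KO water libraries had 102, 61.5, 115 and 168 CPM. Each water group thus spanned more than the distance between group means. WT DSS libraries had 118, 129 and 107 CPM and KO DSS libraries had 96.8, 120 and 112 CPM. The 4 fitted log2 fold changes lay between -0.11 and 0.04, and KO against WT after DSS was the lowest, at -0.11, with a 95% interval of -0.74 to 0.53. On water the interval was -0.59 to 0.51, or -0.62 to 0.62 without KO water replicate 1. A change of Pllp of up to about this size, in either direction, is thus compatible with these libraries.

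For DSS against water, none of Mal2, Mall and Pllp passed in WT or in KO. In WT 0.0% of the 15127 genes passed by edgeR, although 3174 had an unadjusted p below 0.05 and DESeq2 called 814. In KO 0.0661% passed. Mal2 and Mall were 2 of the 3 genes whose WT groups did not overlap between water and DSS, as 24.4% of all genes were. In KO none of the 3 had groups apart, where 8.88% of genes did. None of them passed the test of the difference between the DSS responses of KO and WT, on a background of 0.00661% of genes.

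**Figure D2:**
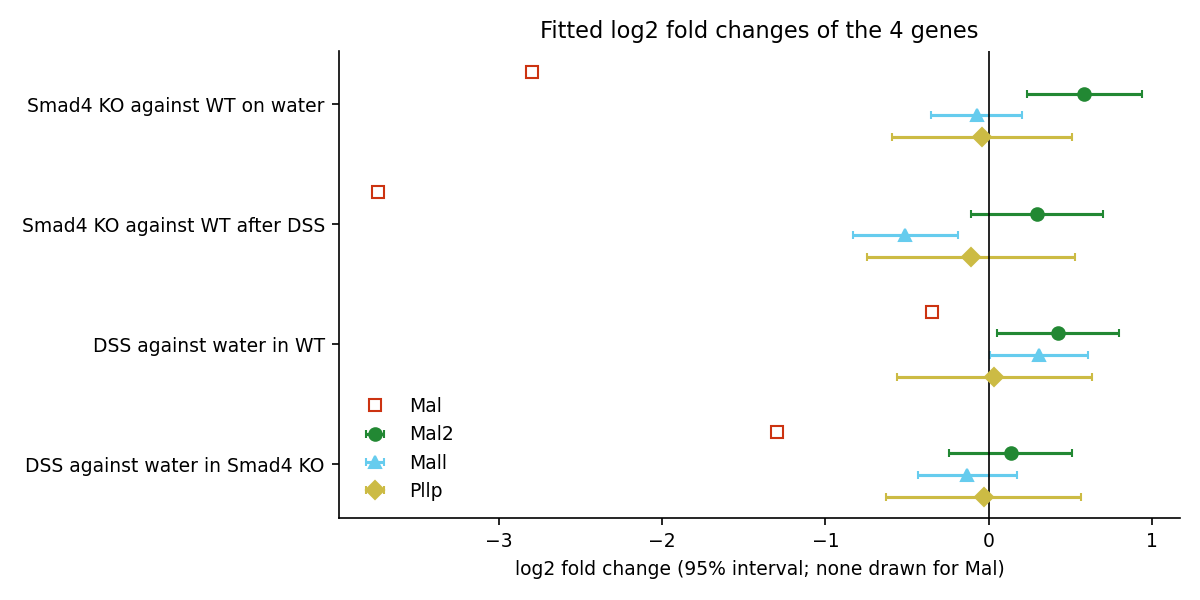
Log2 fold changes from the edgeR model over all 14 libraries for each gene in 4 comparisons; bars are 95% intervals, and Mal is drawn as an open square with no interval because it was chosen for its fall in Smad4 KO. Mal lies at -2.80 and -3.74 in the KO against WT rows, Mal2 at 0.59 and 0.30, Mall at -0.07 and -0.51, and Pllp at -0.04 and -0.11.

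Levels of different genes can be set side by side only per length, here as CPM per kb of exon. In WT water Mal2 had 70.0 ± 10.2, Pllp 60.8 ± 21.6, Mall 58.1 ± 4.34 and Mal 11.1 ± 4.96 CPM per kb (SD, n = 4 each). Pllp and Mall differed by less than their spread, and Mal2 exceeded Mall by a factor of 1.00 to 1.31 in these libraries. In KO water the order was Mal2 at 105 ± 21.6, Pllp at 59.2 ± 23.3, Mall at 55.2 ± 10.4 and Mal at 1.59 ± 0.860 CPM per kb (SD, n = 4 each). Without replicate 1 these were 116 ± 3.28, 60.9 ± 28.2, 59.0 ± 8.64 and 1.23 ± 0.569 CPM per kb (SD, n = 3 each). WT DSS libraries had 93.8 ± 12.7 for Mal2, 71.8 ± 5.54 for Mall, 62.4 ± 5.70 for Pllp and 8.77 ± 3.35 for Mal (SD, n = 3 each). KO DSS libraries had 115 ± 10.8, 50.4 ± 1.82, 58.0 ± 6.19 and 0.654 ± 0.169 CPM per kb for the same genes in that order (SD, n = 3 each). By group mean, Mal2 was the most abundant and Mal the least abundant in each group. In WT water replicate 2, however, Pllp (87.6 CPM per kb) exceeded Mal2 (80.6 CPM per kb). Mall and Pllp changed places within their spread.

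The sum of the 4 genes did not separate the groups. It ran from 168 to 236 CPM per kb in WT water, 174 to 275 in KO water (197 to 275 without replicate 1), 220 to 261 in WT DSS and 219 to 231 in KO DSS. Mal made up 2.66% to 8.04% of that sum in WT water and 0.280% to 1.54% in KO water (0.280% to 0.779% without replicate 1). It made up 2.60% to 4.77% in WT DSS and 0.242% to 0.380% in KO DSS. Mal2 made up 33.7% to 38.7% in WT water and 42.0% to 57.0% in KO water (42.5% to 57.0% without replicate 1), then 38.2% to 41.5% in WT DSS and 46.9% to 54.4% in KO DSS.

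The ratio of Mal2 to Mall within a library, which does not depend on how libraries are scaled, set the genotypes apart in both treatments. It was 1.25, 1.31, 1.25 and 1.00 in WT water and 1.67, 2.20, 2.04 and 1.71 in KO water. After DSS it was 1.39, 1.30 and 1.22 in WT and 2.45, 1.96 and 2.47 in KO. All 7 KO libraries lay above all 7 WT libraries, KO water replicate 1 included, although that library had Smad4 at the WT level. The ratio was picked after its values were seen and was given no test. How often ratios of other gene pairs come apart in this way was not counted, so the separation is given as a description only.

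**Figure D3:**
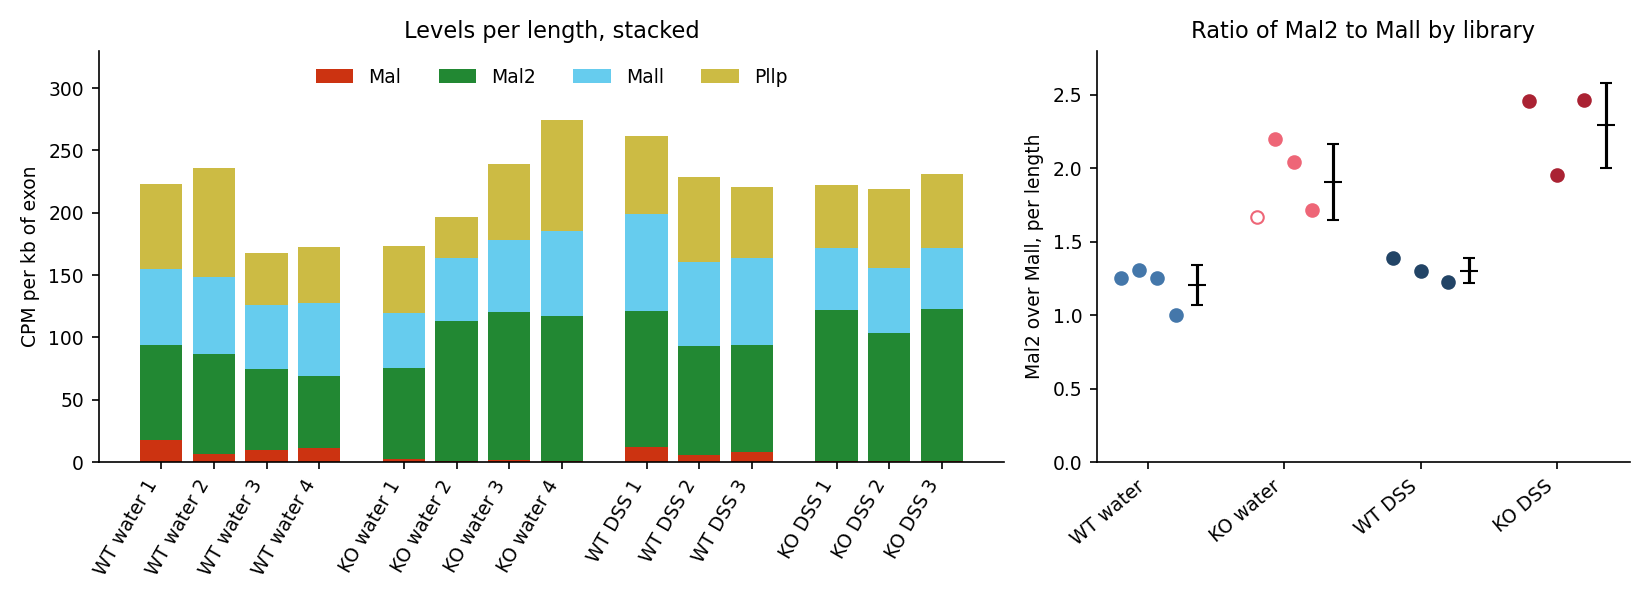
Left, CPM per kb of exon of the 4 genes stacked for each library, linear axis; right, the ratio of Mal2 to Mall per length in each library, with mean ± SD and the library labelled KO water replicate 1 as an open circle. The Mal layer nearly vanishes in KO, and the ratio lies at 1.00 to 1.39 in WT and 1.67 to 2.47 in KO.

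The genes described here that lie near the members did not follow Mal. Within 100 kb of Mal or Mall, tested genes other than the members included Zfp661, Mrps5, 1500011K16Rik and Bub1. The log2 fold changes of these 4 in KO against WT lay between -0.59 and 0.13 on water and between -0.09 and 0.19 after DSS, and none of the 4 passed the edgeR test. Near Pllp the tested genes were Fam192a, Rspry1, Arl2bp and Cx3cl1, with values between -0.23 and 0.33 on water and between -0.29 and 0.24 after DSS, none of which passed.

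The other MARVEL genes had values on both sides of 0, and 1 passed the test. Of 24 further family genes, which include synaptogyrins, CKLF-like and tight-junction MARVEL proteins, 18 were tested. On water 1 rose and 0 fell in KO, where 4.83% of all genes rose and 3.6% fell, so this count lies near the background. The 18 log2 fold changes ran from -2.39 to 1.01, with 10 positive and a median of 0.06 against -0.01 over all genes. Without KO water replicate 1, again 1 rose and 0 fell, 7 were positive and the median was -0.03. Myadm, a myeloid-associated raft protein with MARVEL domains, was the one that rose, from 84.7 ± 13.2 to 124 ± 14.03 CPM (SD, n = 4 each), a log2 fold change of 0.55 (SE 0.14, adjusted p 0.033 by edgeR). The groups did not overlap, with WT at 65.2 to 93.6 and KO at 108 to 139 CPM. After DSS none of the 18 passed, and the median was -0.04.

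Genes of apical transport held 2 that fell in KO on water and 0 that rose among 18 tested, with a median of -0.17 against -0.01 over all genes. The count was the same without KO water replicate 1, with a median of -0.19. With 8.44% of all genes called in either direction, 2 of 18 is near the background. Rab8a, a small GTPase of exocytosis to the apical side, went from 152 ± 21.6 to 107 ± 9.74 CPM (SD, n = 4 each), a log2 fold change of -0.51 (SE 0.12, adjusted p 0.030 by edgeR). Slc9a3r1, which encodes the brush border scaffold NHERF, went from 263 ± 37.3 to 180 ± 33.4 CPM (SD, n = 4 each), a log2 fold change of -0.55 (SE 0.15, adjusted p 0.037 by edgeR). Lgals4, a raft lectin of apical sorting, had the highest level of the list at 1768 ± 247 CPM per kb over the 14 libraries (SD) and did not pass. After DSS none of the 18 passed, Rab8a had a log2 fold change of -0.09 and Slc9a3r1 had -0.34.

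Among raft scaffold proteins, 2 of 11 tested genes rose and 1 fell in KO on water, with a median of 0.38, where 8.44% of all genes were called. Without KO water replicate 1, 3 rose and 1 fell, with a median of 0.42 and 7.66% of all genes called. Cav2, which encodes a caveolin, went from 5.19 ± 1.63 to 11.4 ± 2.99 CPM (SD, n = 4 each), a log2 fold change of 1.13 (SE 0.25, adjusted p 0.024 by edgeR). Cav1, its partner in caveolae, also passed (adjusted p 0.040 by edgeR), at 0 to 4 counts in WT water libraries and 2 to 70 in KO water libraries. The summed level of 6 fibroblast markers was 0.895 to 4.06 CPM in WT water, 2.98 to 24.7 in KO water, 0.276 to 1.89 in WT DSS and 7.20 to 13.0 in KO DSS, and its part in these caveolin values was not tested. Stoml1, of the stomatin family, fell from 20.4 ± 6.12 to 9.99 ± 3.4 CPM (SD, n = 4 each), a log2 fold change of -1.02 (SE 0.25, adjusted p 0.031 by edgeR). After DSS none of the 11 passed.

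Rafts are rich in sphingolipids, and of 22 tested genes of their synthesis 1 rose and 1 fell in KO on water, with a median of 0.01, a share near the 8.44% of all genes called. When KO water replicate 1 was left out, 2 rose and 1 fell, with a median of 0.0037. B4galt6, which makes lactosylceramide, rose from 30.7 ± 7.40 to 58.5 ± 10.9 CPM (SD, n = 4 each), a log2 fold change of 0.93 (SE 0.17, adjusted p 0.021 by edgeR). Gal3st1, which makes sulfatide, the sulfated glycolipid that MAL associates with in myelin, fell from 65.2 ± 16.0 to 39.4 ± 10.3 CPM (SD, n = 4 each), a log2 fold change of -0.73 (SE 0.19, adjusted p 0.036 by edgeR). After DSS none of the 22 passed, with 0.33 for B4galt6 and -0.15 for Gal3st1. None of the 4 lists had a gene called in the DSS against water comparisons or in the difference of the DSS responses. Without KO water replicate 1 these 8 genes kept their calls on water. None of the 4 lists had a call on water without KO water replicate 3, without WT water replicate 4 or with only the water libraries in the fit.

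**Figure D4:**
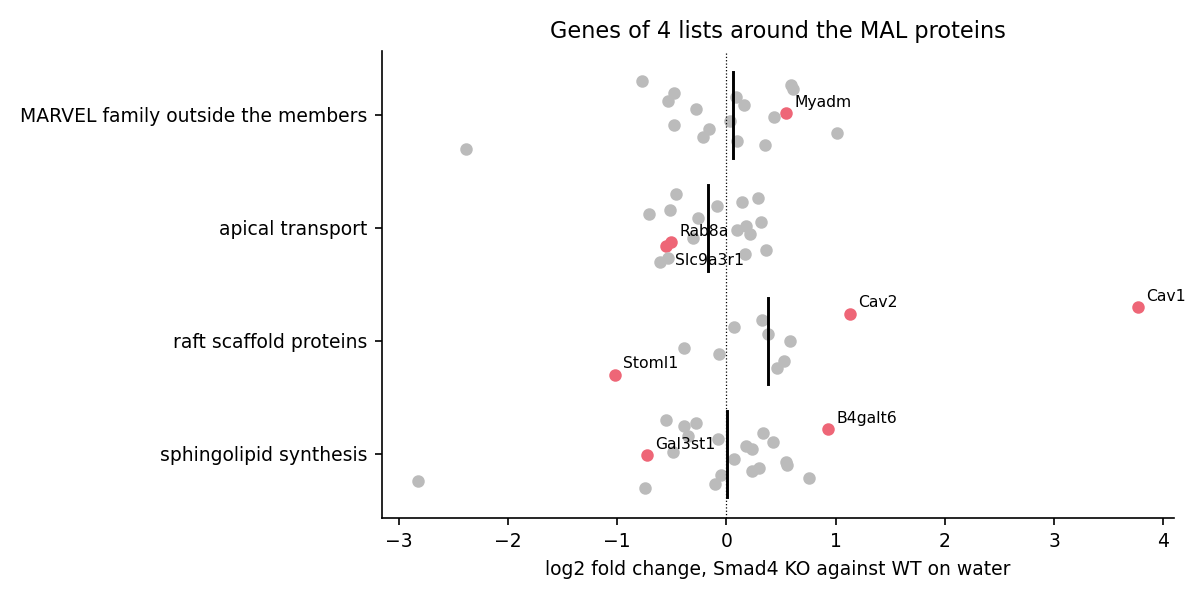
Log2 fold changes of Smad4 KO against WT on water for the tested genes of 4 lists; each point is a gene, black bars are list medians, and named red points passed an adjusted p of 0.05. The medians lie at 0.06, -0.17, 0.38 and 0.01 from top to bottom, and Cav1 rests on 0 to 4 counts in WT water.

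The summed level of markers of mature absorptive colonocytes was lower in KO, although 1 of the 9 genes passed the test. The sum of 9 such genes was 4409 to 5309 CPM in WT water, 2759 to 3948 in KO water (2848 to 3948 without replicate 1), 3423 to 4476 in WT DSS and 2693 to 3362 in KO DSS. KO lay below WT in both treatments. On water this was the only 1 of 15 marker lists with KO and WT apart, but after DSS 7 of the 15 were apart, in either direction. KO water replicate 1, which had Smad4 at the WT level, had the lowest absorptive sum of its group. The 9 genes had median log2 fold changes in KO against WT of -0.44 on water and -0.61 after DSS, with extremes of -0.98 for Car1 on water and -1.03 for Car4 after DSS. Only Car1, a carbonic anhydrase of these cells, passed on water (adjusted p 0.035 by edgeR), where 8.44% of all genes did, and none passed after DSS. None of the 9 passed on water without KO water replicate 1, with a median of -0.46. Slc26a3 (0.07) and Ceacam20 (0.09) on water and Emp1 (0.36) after DSS had values above 0. The part of these cells in the Mal values was not tested, and in bulk RNA fewer cells of a type and less RNA per cell cannot be told apart. Mal was chosen for its fall, so the size of that fall beside those of the 9 genes is no result.

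MAL is also made by T cells, glia and squamous epithelium, such as that of the anus. Markers of T and B lymphocytes summed to 13.8 to 32.9 CPM in WT water, 18.5 to 42.7 in KO water, 20.9 to 31.8 in WT DSS and 24.4 to 27.5 in KO DSS, and the genotypes overlapped in both treatments. Of 12 squamous markers, Krt5, Trp63, Sprr3, Krtdap and Ivl had no read in any library. Sprr1a had 101 to 540 counts per library and Krt14 had 6 to 55. The list summed to 6.80 to 26.4 CPM. Its KO DSS values of 6.80 to 12.4 CPM lay just below the WT DSS values of 12.5 to 21.9. The myelin and glial genes Mag, Mog and Sox10 had at most 12 reads in a library. Of all 15 marker lists, 1 had KO and WT groups apart on water and 7 did after DSS.

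The genes whose levels most resembled each member were taken from 11566 tested genes with a mean of at least 50 counts, by Pearson's r of log2 CPM over the 14 libraries. These points share the 4 groups and the depth of each library, so r here describes a pattern and carries no test. The 5 most like Mal were Sult1a1, a sulfotransferase (r = 0.91), Cyp2d26, a cytochrome P450 (0.89), Selenbp1, a selenium-binding protein (0.89), Eci3, an enzyme of fatty acid oxidation (0.87), and Smad4 itself (0.87). By Spearman's rho Smad4 stood lower, at rank 270 from the top (rho = 0.68). Its rank by Pearson's r rested on the gap between genotypes. Over the 7 WT libraries alone, r between Mal and Smad4 was -0.65. Among the most opposite to Mal were Fads3 of the fatty acid desaturase family (r = -0.93), Mboat2, a lysophospholipid acyltransferase (-0.90), Xpnpep2, a membrane aminopeptidase (-0.89), and Vsig1, a junctional immunoglobulin-domain protein (-0.89).

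The other members had other companions. Mal2 was closest to Appl1, an endosomal adaptor (r = 0.96), Pdss1 of coenzyme Q synthesis (0.94), Gcnt4, an O-glycan branching enzyme (0.93), Rars, an aminoacyl-tRNA synthetase (0.93), and Cog3, a Golgi tethering subunit (0.92). Among the genes closest to Mall were Zbp1, a nucleic acid sensor (0.92), Slc7a9, a cystine transporter subunit (0.81), 8430427H17Rik (0.80) and Dlst, a mitochondrial dehydrogenase subunit (0.79). Pllp was closest to Pld3, a lysosomal nuclease (0.93), Map2k3, a stress kinase (0.91), Slpi, a protease inhibitor (0.91), Arl6ip5 (0.90) and Uck2, a pyrimidine nucleoside kinase (0.88). No gene named here stood in more than 1 of these lists. Between members, r over 14 libraries was -0.72 for Mal with Mal2, 0.49 for Mal with Mall and 0.02 for Mal with Pllp. These values take in the gap between genotypes for which Mal was chosen. Over the 7 WT libraries alone they were -0.10, -0.05 and -0.23. Mal2 and Mall had r = 0.05 over all libraries but 0.90 over the 7 WT libraries, in which both were higher after DSS.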

How the data were processed

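The deposited values were raw read counts per gene in 14 libraries, made by the authors from paired-end reads aligned to mm9 with HISAT2 and counted with featureCounts. Gene annotation and strand setting are not given in the sources used here. Every column matched 1 sample label, no row lacked a gene name, and no pair of libraries was identical. Gene positions, exon lengths and coding sequences were taken from GENCODE M1 (mm9), and list genes were matched by symbol or synonym (78 of 79 context genes and 113 of 114 marker genes).

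Counts were modelled in R 4.3.3 with edgeR 4.0.16 (TMM normalization, quasi-likelihood F test, 4 groups and 14 libraries in 1 model), after genes short of 10 counts in 3 or more libraries were dropped. P-values were adjusted by Benjamini-Hochberg over 15127 genes at a threshold of 0.05, and 95% intervals used the model's own degrees of freedom. The fitting code was tested on simulated data. DESeq2 1.42.0, other scalings and filters, a replicate block, a block for the letters that open the library names and leaving out libraries were alternatives. Python 3.11.15 was used for summaries. Total counts of 12882827 to 26087231 per library set the precision.

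The genes named are the 4 members, Smad4, every list gene that passed in a comparison (else the 3 of highest level per length), the 5 genes most like each member and, for Mal, the 5 most opposite, except for some genes that are not reported here. The members, lists and tests were chosen with earlier results of these data known.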

Additional observations from a re-analysis of the deposited data

Results flagged for a closer look

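A library far from the rest of its group of 4, by Dixon's ratio against a critical value of 0.829, was found in 2 of 14 groups of values examined, and chance alone flags about 1 in 20. Both were the library labelled KO water replicate 1. Its Smad4 level was 158 CPM, where the other 3 KO water libraries had 35.0 to 46.7 CPM (ratio 0.905). Its Mal2 level was 202 CPM, where the others had 311 to 329 CPM (ratio 0.860). Its Mal level of 7.43 CPM was not far from its group by this measure.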

How the results depend on the processing

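The log2 fold changes of Mal kept their direction, and moved by less than 1 SD between replicates, in all 123 refits of its 5 comparisons. Mal was chosen for its fall in these same libraries, so its kept direction in KO against WT is no result. Leaving out each replicate gave -3.17 to -2.46 on water and -3.97 to -3.40 after DSS for KO against WT. Mal2 in KO on water had 0.59 with only the 2 groups compared, 0.73 when KO water replicate 1 was left out as well, and 0.51 to 0.73 when each replicate was left out, short of the threshold in most of these fits. Mall after DSS passed only with the 2 groups compared (-0.51).

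Several values near 0 changed sign without passing. Mal2 for DSS in KO went to -0.16 with the name prefix block, and without KO water replicate 1 to -0.34 with that block and -0.0066 with the 2 groups only, and leaving out each replicate gave -0.0066 to 0.21. Mall in KO on water went to 0.019 with the prefix block, and without KO water replicate 1 to 0.10 with the block and 0.025 with 2 groups, and leaving out each replicate gave -0.18 to 0.023. Pllp in KO on water went to 0.45 with the prefix block, and without KO water replicate 1 to 0.31 and 0.0012, with -0.29 to 0.20 on leaving out each replicate. For DSS in WT it went to -0.0048 with upper-quartile scaling, -0.26 with the prefix block, with or without KO water replicate 1, and -0.26 in the D libraries alone, with -0.10 to 0.27 on leaving out each replicate. For DSS in KO it ran from -0.23 to 0.23 on leaving out each replicate, and for the difference of the DSS responses from -0.30 to 0.19. The cause was not tested.

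Most same-numbered libraries did not deviate together (2 of 19 pairs with r above 0.1, and 8 of 42 best matches), so the main model used no pairing by number. The highest r of these pairs, 0.35, was between WT water replicate 4 and KO water replicate 4, whose names both start with MP. A replicate block turned Pllp for DSS in KO to 0.040, changed no other member's call, and raised the genes called on water from 1276 to 2977. Those genes numbered 2631 by DESeq2, 2018 with the prefix block, 1 with the 2 groups only and 4 to 4104 on leaving out a library (4 without WT water replicate 4, 5 and 16 without KO water replicates 3 and 2, 435 to 823 without WT water replicates 1 or 3 or any 1 DSS library, and 4104 without KO water replicate 4). KO against WT after DSS called 2 genes, 50 by DESeq2, 114 with 2 groups, 7 with no filter and 0 to 8 on leaving out a library (0 without WT DSS replicate 1 or any KO DSS library, 8 without KO water replicate 1). DSS in WT called 0, 814 by DESeq2, 138 with no filter, 40 in the D libraries and 535 without KO water replicate 4. DSS in KO called 10, 71 by DESeq2, 1 with 2 groups, 1 with the prefix block and 3 to 11 on leaving out a library. The difference of the DSS responses called 1 gene, 4 by DESeq2 and 6 without KO water replicate 4. The choice of longest transcript or union of exons gave the same lengths. By Spearman's rho the gene most opposite to Mal was again Fads3. Of the genes most like Mal by Pearson's r, Smad4 fell to rank 270 from the top by rho and Selenbp1 to rank 51. The fit on D libraries alone, and those that leave out KO water replicate 1 with the prefix block or with 2 groups, were added after the data were seen.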
